A study of Mus musculus with 3 samples.

Results

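Rag1, Rag2 and Dntt are 3 mouse genes whose products take part in cutting and extending the ends of antigen receptor gene segments. They were described here together with the T-cell receptor (TCR) junctions found in the same cells. The members were chosen by name, 3 of the 32285 genes counted. Their UMI counts were read in 5938 immune cells among 8392 cells kept, and 5853 of 7227 productive TCR chains belonged to those immune cells. A UMI is a molecular tag that marks each captured transcript once.

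The study grew thymic epithelial cells (TECs) as organoids and asked whether they could carry T-cell development. ORFTOCs (organoid reaggregate fetal thymic organ cultures) were built from those organoid TECs, from the EpCAM-depleted cells of mid-gestation embryonic thymi, which bring the thymocyte precursors and mesenchyme, and from mouse embryonic fibroblasts (MEFs). FTOCs (fetal thymic organ cultures) were whole embryonic thymic lobes of the same stage kept in the same medium. Both groups were wild type (WT), C57BL/6J mice being the strain given for the in vitro work, and were collected after 13 days of culture. Neither group received a treatment of its own. Their shared medium held the growth factor FGF7 and, for the first days of culture, thiazovivin. The organoid TECs had been grown with FGF7 too. Within each group 2 cultures were mixed before the hashtag antibody was added, so each group was 1 pooled sample, and both pools were captured in 1 lane from which 3 libraries (gene expression, TCR and hashtag) were made. There was therefore no replicate, no test was possible between the pools or the cell states, and every interval below is a 95% interval for counting error (exact Poisson for UMIs, Clopper-Pearson for shares). Over all cells of a pool Ddx3y, a gene of the Y chromosome, stood at 24.01 CPM (counts per 1000000 UMIs) in ORFTOC and at 0.376 CPM in FTOC. The cells of the 2 pools thus did not all come from the same embryos. ORFTOC also held organoid TECs and MEFs, and which of its cells carried this transcript was not read. The value therefore does not show whether the thymocyte donors differed.

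FTOC gave 4144 cells with 29250988 UMIs, a median of 4952 per cell. ORFTOC gave 4248 cells with 42775371 UMIs, a median of 8053. Of the FTOC cells 3129 were immune, and a productive TRB (TCR beta) chain was found in 2272 of them, in 1287 without and in 985 with a TRA (TCR alpha) chain. Of the ORFTOC cells 2809 were immune, with TRB in 1514, of which 766 had TRB alone and 748 had both chains. The 2 pools held 2364 and 1557 TRB chains and 1100 and 832 TRA chains, FTOC first in each pair.

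RAG1 and RAG2 form the recombinase that cuts DNA beside V, D and J segments. RAG1 carries the catalytic site, and RAG2 is needed for activity and is destroyed when a cell enters division, so that cutting is kept to resting cells. The broken ends are joined by the repair factors of non-homologous end joining. TdT, the product of Dntt, adds bases without a template (N bases) to the ends before they are joined, and in the mouse it is known to come on around birth, so that fetal receptors carry few such bases. In thymocytes TRB is rearranged first, at the double-negative (DN) stage. A productive chain drives a round of division, and TRA is rearranged afterwards in double-positive (DP) cells bearing CD4 and CD8, before selection into single-positive (SP) cells.

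On the genome build GRCm38 (mm10, RefSeq annotation), Rag1 lies at chr2:101638252-101649532 and Rag2 beside it at chr2:101624712-101632528. Dntt lies at chr19:41029275-41059525. The beta locus has 2 D segments, Trbd1 at chr6:41533201-41533212 and Trbd2 at chr6:41542163-41542176. They are printed because they are the germline letters against which the middle of each TRB junction was read, 12 and 14 bases long and rich in G.
Trbd1: gggacagggggc
Trbd2: gggactgggggggc

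The junction is the stretch from the conserved cysteine codon of the V segment to the conserved phenylalanine or tryptophan codon of the J segment, both included. In the junctions below, lower case marks bases that matched the germline V, D or J segment and capitals mark unmatched bases. An unmatched base can be an N base or a P base (a short copy of a segment's own end). An N base that happened to equal the germline counted as matched, which lowers the number. A germline D remnant of fewer than 3 bases counted as unmatched, which raises it. The numbers are therefore an estimate of what was added that can err either way. A D segment was recognised from 3 matching bases on. The first pair shows the TRB junction found in most cells of each pool, TRBV17-TRBJ2-7 in 5 FTOC cells and TRBV30-TRBJ2-5 in 17 ORFTOC cells.
TRBV17-TRBJ2-7, FTOC: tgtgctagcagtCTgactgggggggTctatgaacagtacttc
TRBV30-TRBJ2-5, ORFTOC: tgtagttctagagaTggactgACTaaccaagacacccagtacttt

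Both hold a piece of Trbd2 between short runs of unmatched bases, 3 in the first and 4 in the second. The 17 ORFTOC cells of the second junction lay in 7 clusters, among them DP-like, cycling-like and macrophage-like ones. Together they held 35 Rag1, 9 Rag2 and 84 Dntt UMIs. The macrophage-like cells of ORFTOC were deep, with a median of 19534 UMIs, and a TRB chain was found in 13.5% of them. Whether such a chain was the cell's own was not tested. The extremes of TRB length are shown next, a junction of 21 bases with no unmatched base and, of the 7 that tied at 57 bases, the one with 9.
Shortest TRB, TRBV19-TRBJ2-7: tgtgcgggggaacagtacttc
Longest TRB, TRBV1-TRBJ2-4: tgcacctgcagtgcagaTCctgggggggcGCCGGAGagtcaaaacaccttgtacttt

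The next lines are TRB junctions found in both pools, shown because the pools were separate cultures. Of 11 such junctions the first pair was found in 3 cells each, and the last is 1 of 9 that tied at 2 cells. The 3 printed hold no unmatched base, as did 6 of the 11, and, the first apart, they hold no D segment of 3 bases or more.
TRBV17-TRBJ2-4: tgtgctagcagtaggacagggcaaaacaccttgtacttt
TRBV5-TRBJ1-3: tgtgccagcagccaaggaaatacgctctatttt
TRBV1-TRBJ2-4: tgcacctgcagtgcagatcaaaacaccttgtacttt

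Of the TRA junctions, TRAV12-2-TRAJ47 stood in 2 FTOC cells, 1 of 10 junctions that tied there. TRAV11-TRAJ18 stood in 1 FTOC and 2 ORFTOC cells, and this V and J pair is known as the alpha chain of invariant natural killer T cells. It held no unmatched base over 45 bases. TRAV12D-3-TRAJ48 and TRAV13-1-TRAJ26 were found in 1 cell of each pool, as were all but TRAV11-TRAJ18 of the 9 TRA junctions that the pools shared.
TRAV12-2-TRAJ47: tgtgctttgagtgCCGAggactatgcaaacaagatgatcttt
TRAV11-TRAJ18: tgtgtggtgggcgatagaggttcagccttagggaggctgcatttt
TRAV12D-3-TRAJ48: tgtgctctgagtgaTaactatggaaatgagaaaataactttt
TRAV13-1-TRAJ26: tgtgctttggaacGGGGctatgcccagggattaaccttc
Shortest TRA, TRAV14N-2-TRAJ57: tgtgcagcaaagctcatcttt
Longest TRA, TRAV21-DV12-TRAJ6: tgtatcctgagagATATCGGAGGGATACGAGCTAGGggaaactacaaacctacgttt

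The shortest TRA junction, 21 bases, held no unmatched base, and the longest, 57 bases and 1 of 3 that tied, held 23.

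The question put to the transcript counts was how the 3 members stood in cells with and without a detected TRB or TRA chain, dividing or not. A chain that was not detected is not shown to be absent. Cells with at least 2 UMIs of Mki67 and Top2a together were called cycling, cells with none resting, and cells with 1 in between. Resting cells were much shallower, a median of 1825 against 8641 UMIs in TRB-positive FTOC cells and 2340 against 12630.5 in ORFTOC, so each level is given both as CPM, a share of all transcripts, and as UMIs per cell. A shallow cell also falls more easily into the resting class. Resting cells with TRB alone had a median of 1728.5 UMIs in FTOC and 1869 in ORFTOC, against 1983.5 and 3745 with both chains.

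Among the TRB-positive states, Rag1, the catalytic subunit, was highest as a share of transcripts in resting cells with TRB alone. In FTOC it stood at 1048 CPM (1006 to 1091) in 936 such cells and at 232 CPM (214 to 252) in 270 cycling ones. In ORFTOC it stood at 746 CPM (700 to 795) in 429 resting and at 156 CPM (144 to 168) in 298 cycling cells. Per cell the same groups differed little, 2.51 UMIs resting against 2.14 cycling in FTOC and 2.27 against 2.13 in ORFTOC. Over all TRB-positive cells the log2 ratio of resting to cycling CPM was 2.05 (1.94 to 2.17) in FTOC and 1.85 (1.72 to 1.98) in ORFTOC, whereas the log2 ratio per cell was 0.17 and 0.09, the interval reaching from -0.04 to 0.22 in ORFTOC. Cells with both chains differed from this in ORFTOC, where Rag1 stood at 1.17 UMIs per resting and 0.608 per cycling cell, a log2 ratio of 0.94 (0.64 to 1.25), against 0.26 (0.04 to 0.48) in FTOC. The 26 resting cells with TRA alone, too few to compare, held Rag1 at 1285 CPM (1019 to 1600).

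Rag2, the regulated partner, followed Rag1 on the CPM scale. In FTOC cells with TRB alone it stood at 172 CPM (155 to 190) resting and 69.5 CPM (59.5 to 80.6) cycling, and in ORFTOC at 127 CPM (109 to 148) and 51.2 CPM (44.5 to 58.7). Per cell the order was the other way, 0.411 UMIs resting against 0.641 cycling in FTOC and 0.387 against 0.701 in ORFTOC. The log2 ratio of resting to cycling over TRB-positive cells was 1.24 (1.02 to 1.47) in CPM and -0.64 per cell in FTOC, and 0.85 (0.59 to 1.10) and -0.91 in ORFTOC.

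Dntt, which encodes TdT, behaved least like Rag1. It stood at 810 CPM (773 to 848) in resting and 560 CPM (531 to 590) in cycling FTOC cells with TRB alone, and at 611 CPM (569 to 655) and 477 CPM (456 to 499) in ORFTOC. Per cell it was several times higher in cycling cells, 5.16 against 1.94 UMIs in FTOC and 6.53 against 1.85 in ORFTOC. Over TRB-positive cells the log2 CPM ratio was 0.47 (0.38 to 0.55) in FTOC and -0.04 (-0.14 to 0.06) in ORFTOC, and per cell -1.41 and -1.80. The direction of the Dntt comparison therefore depended on the scale.

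Ratios between members within the same cells do not depend on the total, but free RNA enters them. In near-empty barcodes, which hold free RNA, Rag1 stood at 287 CPM, Rag2 at 29.3 CPM and Dntt at 91.2 CPM. Free RNA thus held more Rag1 than Rag2 or Dntt, and its part in the ratios was not tested. Resting TRB-positive cells held 6.19 Rag1 UMIs for each Rag2 UMI, and cycling cells held 3.29. The split was alike in both pools, 6.24 and 3.56 in FTOC and 6.097 and 3.04 in ORFTOC. Dntt moved the other way, with 0.77 Dntt UMIs for each Rag1 UMI in resting and 2.61 in cycling cells, 0.76 and 2.30 in FTOC and 0.79 and 2.94 in ORFTOC. UMIs of different genes are not corrected for length or capture, so only the change of these ratios between states is described.

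**Figure D1:**
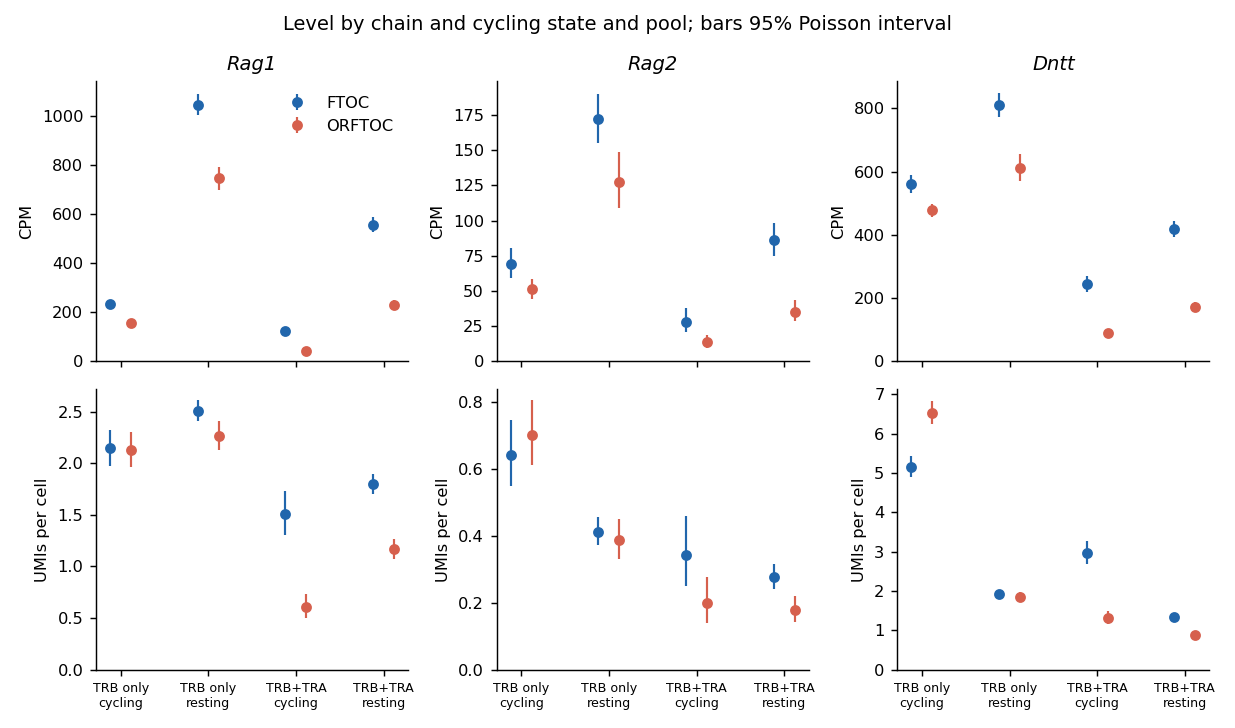
Rag1, Rag2 and Dntt in CPM (upper row) and in UMIs per cell (lower row) by chain and cycling state, FTOC blue and ORFTOC red, with 95% Poisson intervals. Of the states shown, resting cells with TRB alone hold the highest CPM of all 3 genes, while per cell Dntt is highest in cycling cells with TRB alone, 5.16 UMIs in FTOC and 6.53 in ORFTOC.

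All 3 members were lower in cells that also carried a TRA chain. Among resting cells Rag1 stood at 558 CPM (529 to 588) in FTOC and 230 CPM (212 to 250) in ORFTOC, Rag2 at 86.0 CPM (74.95 to 98.3) and 35.3 CPM (28.4 to 43.2), and Dntt at 419 CPM (394 to 445) and 172 CPM (157 to 189). The log2 ratio to cells with TRB alone was -0.91 for Rag1, -0.999 for Rag2 and -0.95 for Dntt in FTOC, and -1.70, -1.85 and -1.82 in ORFTOC. Within each pool the intervals of the 3 ratios overlapped. Per cell the ratios were smaller and in the same direction, -0.48, -0.57 and -0.52 in FTOC and -0.96, -1.12 and -1.09 in ORFTOC. Counted by chains, resting TRB-positive cells with 0, 1 and 2 TRA chains held Rag1 at 1048, 575 and 436 CPM (365 to 516, 75 cells) in FTOC and at 746, 250.2 and 81.6 CPM (52.8 to 120, 46 cells) in ORFTOC.

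In CPM, ORFTOC cells stood below FTOC cells in most states. In resting cells with TRB alone the log2 ratio of ORFTOC to FTOC CPM was -0.49 (-0.60 to -0.38) for Rag1, -0.43 (-0.70 to -0.17) for Rag2 and -0.41 (-0.53 to -0.28) for Dntt. Per cell the same ratios were -0.15, -0.09 and -0.06, and the intervals of Rag2 and Dntt reached past 0. In resting cells with both chains the CPM ratios were -1.28, -1.29 and -1.28, and per cell -0.62, -0.63 and -0.63. In cycling cells with TRB alone the CPM ratios were -0.58, -0.44 and -0.23. Per cell they were -0.01, 0.13 and 0.34 (0.24 to 0.44 for Dntt), so Dntt was higher in ORFTOC there. In cycling cells with both chains the per-cell ratios were -1.31, -0.79 and -1.17. These are mixtures of cell types, and the values within clusters follow.

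To place the members in cell types, immune cells were clustered without Rag1, Rag2, Dntt, Mki67, Top2a and the TCR segment genes, which gave 19 clusters. By markers fixed for the purpose 12 took a name. Clusters 1, 4 and 17 were DP-like (1574 cells, Cd4 or Cd8b1 or Themis among their leading genes), cluster 9 selected-like (Cd5, Cd6, Cd28), cluster 2 mature SP-like (Ccr7, S1pr1), and clusters 11 and 14 cycling-like. The others named were ILC3-like, ILC2-like, macrophage-like and gamma-delta T-like. The other 7 stay unnamed and are called by their leading genes. A class was scored by the mean log2 ratio of its markers to the other clusters. Clusters 7 and 16 scored highest for DP, 2.07 and 1.74, against 2.09 in DP-like cluster 4. They stay unnamed because no DP marker was among their 10 leading genes. Cells outside the DP-like clusters therefore include these DP-scoring cells.

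Rag1 was highest in the DP-like clusters, 2537 CPM (2285 to 2809) in cluster 17, 2082 CPM (2010 to 2156) in cluster 1 and 1159 CPM (1090 to 1230) in cluster 4. Cluster 16, led by the interferon-response genes Usp18, Ifit1 and Isg15, held 1230 CPM (1098 to 1375), and cluster 7, led by Ly6d and Aqp11, held 1168 CPM (1103 to 1237). The intervals of clusters 4, 7 and 16 overlapped. The level was 362 CPM in the selected-like cluster, 342 CPM in cycling-like cluster 11 and 183 CPM in cluster 5, which was led by histone genes and in which 97.7% of cells were cycling. In the mature SP-like cluster it was 14.3 CPM (11.1 to 18.2), against 9.28 CPM (8.22 to 10.4) in epithelial cells, which should not express the gene, and 287 CPM in the barcodes that held free RNA.

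Rag2 was highest in cluster 1, 291 CPM (265 to 320), followed by 226 CPM (171 to 292) in cluster 16, 220 CPM (190 to 252) in cluster 4 and 207 CPM (180 to 237) in cluster 7, of which the last 3 had overlapping intervals. Cluster 17, with the highest Rag1, held 116 CPM (67.9 to 187) of Rag2, below cluster 1 by the intervals. It was 65.7 CPM in the selected-like and 3.41 CPM (1.95 to 5.54) in the mature SP-like cluster, against 1.24 CPM in epithelial cells.

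Dntt had another leader, cluster 7, which is unnamed but scored highest for DP. Cluster 7 held the most, 1328 CPM (1258 to 1401), above cluster 1 with 1145 CPM (1092 to 1200) and cluster 4 with 1125 CPM (1058 to 1196), whose intervals overlapped. Cycling-like cluster 11 held 740 CPM (705 to 775) and the histone-led cluster 5 held 551 CPM (530 to 572). In cluster 17 Dntt was 747 CPM (614 to 901), below clusters 1 and 4 by the intervals, although this cluster held the most Rag1. The mature SP-like cluster held 13.0 CPM (9.95 to 16.7), and epithelial cells 5.38 CPM.

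**Figure D2:**
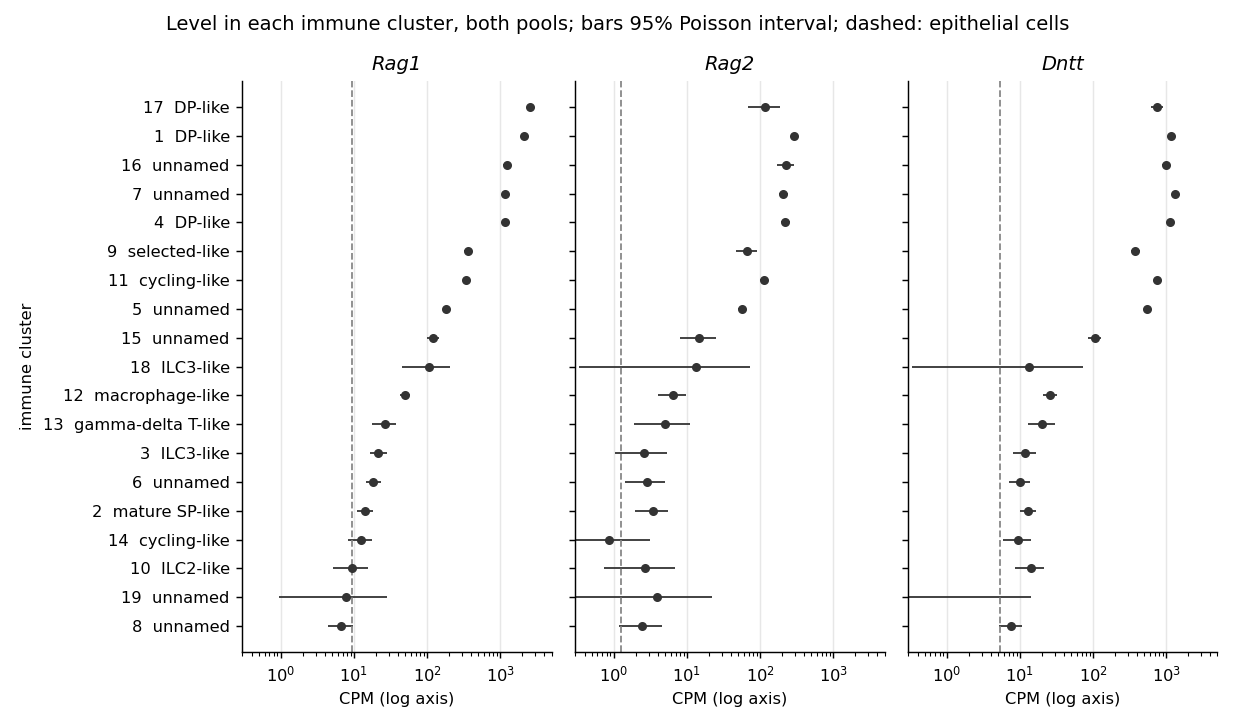
Rag1, Rag2 and Dntt in CPM (log axis) in each of the 19 immune clusters, both pools together, ordered by Rag1, with 95% Poisson intervals. The dashed line marks epithelial cells (9.28, 1.24 and 5.38 CPM). The mature SP-like cluster 2 lies above it at 14.3, 3.41 and 13.0 CPM, while DP-like cluster 1 holds 2082, 291 and 1145 CPM.

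Within the DP-like clusters the differences by chain state and by pool shrank. Resting DP-like cells held Rag1 at 1719 CPM (1648 to 1792) with TRB alone and at 1760 CPM (1668 to 1856) with both chains. The pools stood at 1827 CPM (1765 to 1890) in FTOC and 1659 CPM (1568 to 1753) in ORFTOC for Rag1, at 251 and 267 CPM for Rag2, and at 1126 and 1090 CPM for Dntt, with overlapping intervals for the last 2 genes. In the selected-like cluster Rag1 stood at 377 CPM (317 to 445) in FTOC and 334 CPM (257 to 426) in ORFTOC.

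Over the 19 clusters and 7713 genes with at least 50 CPM in a cluster, the genes whose log2(CPM + 10) followed Rag1 most closely were Rmnd5a (r = 0.99), 1810059H22Rik, Arpp21, Hibadh and Gm4258 (r = 0.98 each). Rag2 was followed by 1810059H22Rik, Chrna9, A930003A15Rik, Gtf2h4 (r = 0.98 each) and Ilvbl (r = 0.97). Dntt was followed by Endou and Aqp11 (r = 0.99 each), Arpp21 and Syt13 (r = 0.98 each) and 2900079G21Rik (r = 0.97). Among the members themselves r was 0.96 for Rag1 and Rag2, 0.95 for Rag1 and Dntt and 0.97 for Rag2 and Dntt. These are descriptions over clusters of 1 lane, which share depth and free RNA.

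In single cells the members were read after every cell was thinned to 1000 UMIs, since depth sets how often a gene is seen. A Rag1 UMI was then found in 51.04% (49.1 to 53.0) of 2596 resting TRB-positive cells, Rag2 in 15.02% and Dntt in 44.8%, 69 shallower cells being left out. Of 875 cycling ones the shares were 15.4%, 5.6% and 34.3%. Without thinning the cycling shares were 51.4%, 31.5% and 66.4%, and the resting ones 62.8%, 24.95% and 56.7%. Thinned epithelial cells gave 0.91%, 0.09% and 0.69%, with a median depth of 12746 UMIs before thinning. Mature SP-like cells gave 1.02% for Rag1 and 0.17% for Rag2, whose intervals (0.38 to 2.21 and 0.00 to 0.95) held the epithelial share, and 1.70% (0.82 to 3.11) for Dntt.

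Over 3716 thinned TRB-positive cells, Rag1 and Dntt were seen together in 967 cells where the product of their single shares gives 642. Rag1 and Rag2 were seen together in 315 against 191, and all 3 in 187 against 79.8. Of these cells 1538 (41.4%) held none of the 3. Within 1470 DP-like cells the counts were close to the products, 700 against 695 for Rag1 and Dntt, 249 against 245 for Rag1 and Rag2 and 182 against 197 for Rag2 and Dntt, and 107 cells (7.28%) held none. Co-detection above the product was thus seen where cell types were mixed and not within the DP-like clusters.

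The wider machinery was read from a list of 36 genes, of which 35 had enough UMIs (at least 10). A gene was called where its CPM differed at least 2-fold and the 2 Poisson intervals stood apart. Resting over cycling among TRB-positive FTOC cells, 11.7% of 11632 genes were called higher and 7.04% lower, with a median log2 ratio of 0.28 over all genes. In ORFTOC 12.9% of 11719 were higher and 7.02% lower, with a median of 0.25. By this rule Rag1 was higher in both pools, Rag2 in FTOC, and Dntt in neither.

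Of the 35 list genes, 6 were higher and 5 lower in FTOC, and 8 higher and 7 lower in ORFTOC, with list medians of 0.37 and 0.25 close to those of all genes. Among 12 end-joining genes, Dclre1c, which encodes the nuclease Artemis that opens the hairpin ends, had log2 ratios of 1.75 in FTOC and 1.02 in ORFTOC. Polm, a polymerase related to TdT, had 1.54 and 1.42. Lig4, the ligase of the pathway, had 1.00 in FTOC, where it was called, and 0.40 in ORFTOC, where it was not. The end-binding gene Xrcc6 had 0.29 and -0.57 and was called in neither. Poll and Xrcc4 were called higher in ORFTOC, with 1.38 and 1.02.

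All 3 genes of RAG2 turnover in the cell cycle were called lower in both pools. The states were split by Mki67 and Top2a, genes of dividing cells, so a lower level of cell-cycle genes in resting cells is built into that split. It is therefore not read as a result about RAG2. Skp2, whose product marks RAG2 for destruction, had -1.76 in FTOC and -2.71 in ORFTOC, Cdk2 had -1.29 and -1.56, and Ccna2 -5.95 and -6.17. Hmgb2, a DNA-bending cofactor of the recombinase that is also abundant in dividing cells, had -3.63 and -3.43. H2afx, the histone variant marked at breaks, had -3.46 and -3.21. Of 15 regulators none was lower in either pool, and 2 were called higher in FTOC and 3 in ORFTOC. B230118H07Rik, the gene that overlaps Rag2 on the other strand (Iftap at chr2:101560779-101629031), had 2.14 and 1.52, next to 1.24 and 0.85 for Rag2. Traf6, on the other side of Rag1, had 0.71 and 0.39 and was not called. On the UMIs-per-cell scale these ratios are lower by the difference in total UMIs, 1.88 on the log2 scale in FTOC and 1.76 in ORFTOC, so that only B230118H07Rik in FTOC stayed above 0 among the list genes named here as higher.

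Between the pools, in resting TRB-positive cells, 1.38% of 11820 genes were higher and 1.36% lower in ORFTOC, with a median log2 ratio of -0.12. The list held no higher call and 1 lower, Ptcra, which encodes the pre-TCR alpha chain (-1.01), with a list median of -0.38. None of the 3 members was called. Total UMIs per cell were higher in ORFTOC by 0.58 on the log2 scale. Between cells with both chains and cells with TRB alone, 1.64% of 10852 genes were higher and 1.18% lower in FTOC, and 1.18% of 10562 higher and 6.85% lower in ORFTOC. The list gave 1 lower call in FTOC (Ptcra, -1.28) and 8 in ORFTOC, among them B230118H07Rik (-1.99), Ptcra (-1.74), Xrcc6 (-1.47) and Lig4 (-1.45). The members were called lower in ORFTOC, all 3, and in FTOC none was.

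Markers of other cells and depth moved with the states. The summed CPM of 5 epithelial markers was 76.4 in FTOC and 86.4 in ORFTOC in resting TRB-positive cells and 24.97 and 18.8 in cycling ones, and the median mitochondrial share was 3.28% and 2.77% against 2.07% and 1.82%. Their part in the levels was not tested.

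The second question was how long the junctions were and how many of their bases were added. TRB junctions were 41.8 bases long on average in FTOC (SD 4.67 over 2364 chains) and 41.3 in ORFTOC (SD 4.46 over 1557). TRA junctions were 41.2 bases (SD 4.54 over 1100) and 41.1 (SD 4.01 over 832). The median was 42 for both chains in both pools. All junctions were in frame, so lengths fell in steps of 3 bases between 21 and 57. The pools differed by far less than the spread between chains. Cells of a clone share a junction and cells of a pool share cultures, so chains are not replicates.

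In the share of junctions with no unmatched base the pools differed beyond the counting intervals for TRB, while the TRA intervals overlapped. TRB junctions held on average 2.94 unmatched bases in FTOC and 2.61 in ORFTOC. No unmatched base was found in 363 of 2364 FTOC chains, 15.4% (13.9 to 16.9), and in 313 of 1557 ORFTOC chains, 20.1% (18.1 to 22.2). For TRA the means were 2.69 and 2.51 bases, and the shares without any were 17.0% (14.8 to 19.4) and 20.8% (18.1 to 23.7). Read against templates made from the junctions themselves, which leave the D segment among the unmatched bases of TRB, the means were 9.40 and 8.73 bases for TRB and 2.43 and 2.29 for TRA, with the same order of the pools.

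**Figure D3:**
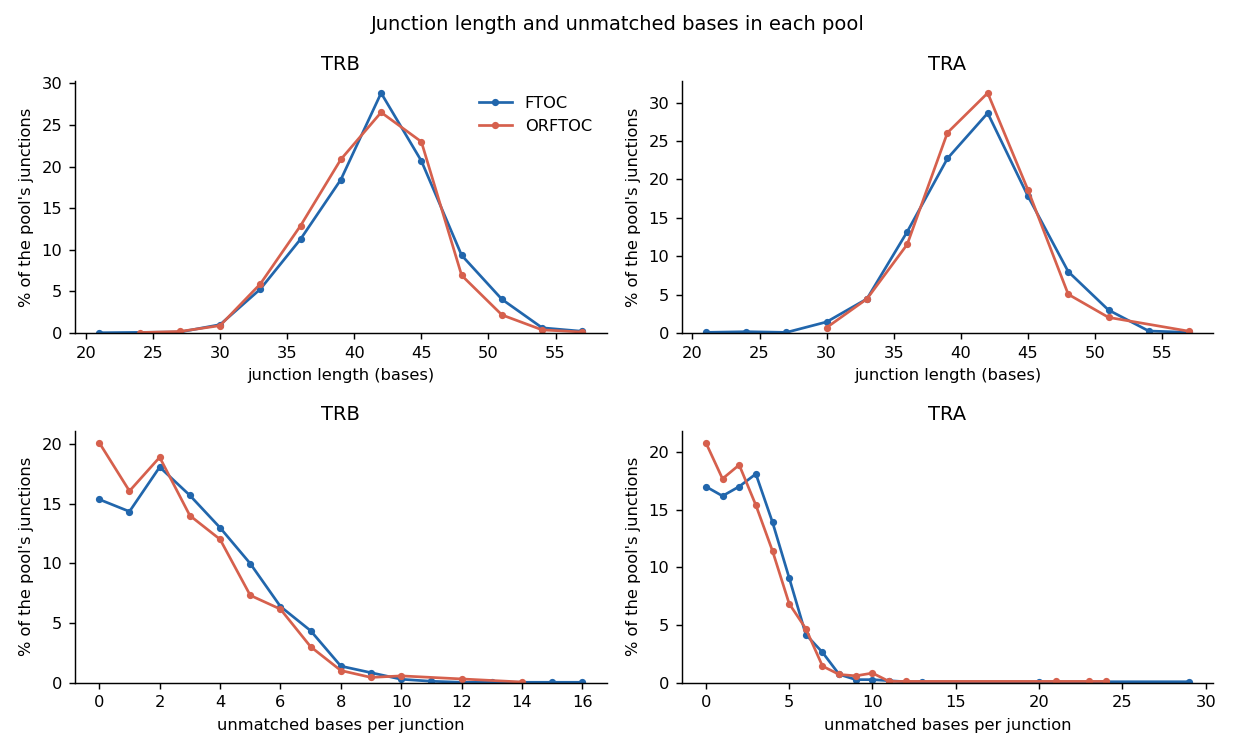
Share of each pool's TRB (left) and TRA (right) junctions by length (upper row) and by number of unmatched bases (lower row), FTOC blue and ORFTOC red. The length curves lie nearly on each other, while junctions with 0 unmatched TRB bases make up 15.4% of FTOC and 20.1% of ORFTOC.

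The unmatched bases had a composition of their own. Of 11014 unmatched TRB bases 61.2% (60.3 to 62.1) were G or C, against 53.5% of the matched bases, and of 5039 unmatched TRA bases 66.1% (64.8 to 67.4), against 44.7%. TdT is known to favour G and C. In both pools the shares were within 2 points of these values. The beta chain's J clusters differed too. Junctions with a TRBJ1 segment were 40.9 bases long with 2.53 unmatched bases and none in 22.0% (20.1 to 23.995) of 1808. Junctions with TRBJ2 were 42.2 bases long with 3.05 and none in 13.2% (11.7 to 14.7) of 2113. The matched D part was 5.90 bases with TRBJ1 and 7.38 bases with TRBJ2. Every TRB junction was read against both D segments, whichever J cluster it used. The part of this reading in the difference between J clusters was not tested.

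By chain state, the TRB junctions of cells with TRB alone had a mean of 42.0 bases (SD 4.71 over 2053 chains) and those of cells with both chains 41.2 bases (SD 4.43 over 1868). The share with no unmatched base was 11.8% (10.5 to 13.3) and 23.2% (21.3 to 25.2). Cells with TRB alone were alike in the pools, 11.7% in FTOC and 12.01% in ORFTOC, whereas cells with both chains stood at 19.7% and 27.9%. Resting and cycling cells stood at 41.7 and 41.5 bases with none unmatched in 17.2% and 16.2%. Within chain states the share went in opposite directions, 12.1% (10.4 to 13.9) resting and 9.86% (7.53 to 12.6) cycling with TRB alone and 22.1% (19.99 to 24.4) and 26.8% (22.2 to 31.8) with both chains, and the intervals overlapped in each.

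The 2 readouts were then joined cell by cell. Cells in which no Dntt UMI was seen had TRB junctions of 40.6 bases on average with 2.23 unmatched, and none unmatched in 27.0% (24.8 to 29.2) of 1635. Cells with 1 to 2 Dntt UMIs had 42.4 bases and 13.1% (11.1 to 15.3) of 1037. Cells with 3 to 5 had 42.2 bases and 8.58% (6.71 to 10.8) of 781, and cells with 6 or more had 42.3 bases and 6.84% (4.72 to 9.52) of 468. The length differed between none and any, by 1.72 bases, and not further along the scale, while the share without unmatched bases went down at each step, the last 2 intervals overlapping.

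TRA junctions were 40.7, 41.4, 42.1 and 42.9 bases long along the 4 classes, longer at each step, and 22.1%, 15.01%, 13.2% and 11.2% of them held no unmatched base. Both pools showed the TRB difference. In FTOC 24.1% of TRB junctions from cells without a Dntt UMI held no unmatched base and 10.1% of those from cells with any, and in ORFTOC 30.4% and 10.6%. After thinning to 1000 UMIs the shares were 23.3% (21.6 to 25.1) without and 8.95% (7.59 to 10.5) with a Dntt UMI. As a description over chains that share cells, clones and depth, Spearman's rho between a cell's Dntt UMIs and its TRB junction length was 0.16 (n = 3921), and with the number of unmatched bases 0.23. For Rag1 and length it was 0.17, so that Dntt was not particular in this.

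Within the DP-like clusters the relation was small. TRB junctions were 42.2 bases long in cells without and 42.6 in cells with a Dntt UMI, rho was 0.003 (n = 1359), and the shares without an unmatched base along the 4 classes were 13.6%, 11.3%, 7.57% and 16.3%, the last of 49 chains. Among cells outside these clusters, those of the DP-scoring clusters 7 and 16 included, the lengths were 40.2 and 42.1 bases. The shares there were 30.5%, 15.6%, 9.49% and 5.73%, and rho was 0.21 (n = 2562). Within the mature SP-like cluster, where Dntt was low (13.0 CPM, against 5.38 CPM in epithelial cells), rho was -0.01 (n = 568). With the number of unmatched bases in place of length, rho was 0.05 in the DP-like clusters, 0.11 in the mature SP-like cluster and 0.28 outside the DP-like clusters.

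**Figure D4:**
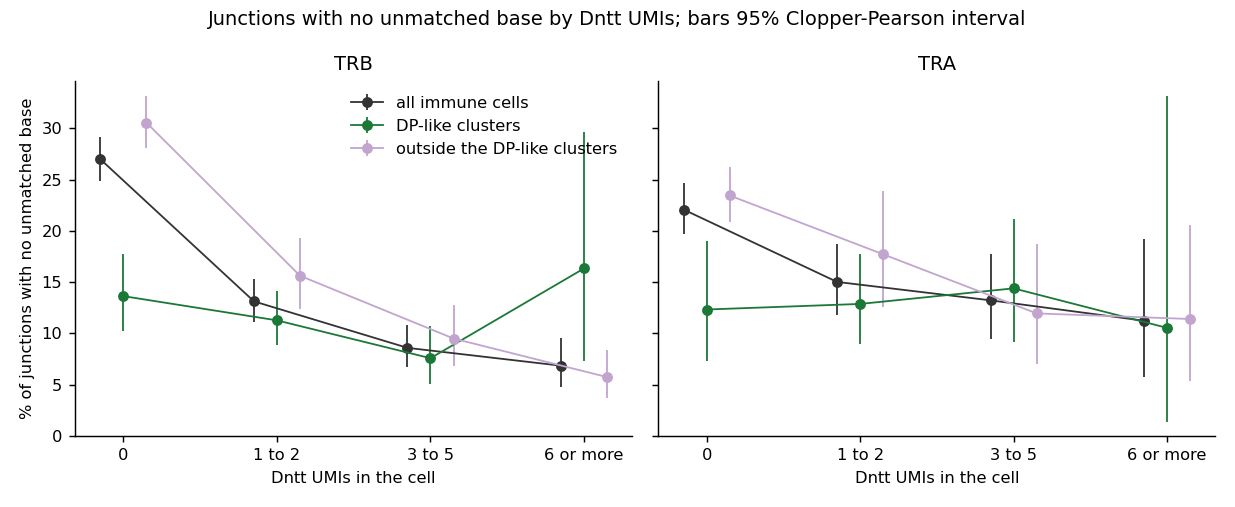
Percent of TRB (left) and TRA (right) junctions with no unmatched base by the number of Dntt UMIs in the cell, for all immune cells, the DP-like clusters and the cells outside them, with 95% Clopper-Pearson intervals. Over all immune cells the TRB share goes from 27.0% at 0 UMIs to 6.84% at 6 or more.

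Between clusters the contrast was wide. DP-like cells had TRB junctions of 42.5 bases with 3.20 unmatched, and none in 11.0% (9.42 to 12.8) of 1359, 11.0% in FTOC and 11.1% in ORFTOC. Mature SP-like cells had 39.9 bases with 1.85 unmatched, and none in 35.9% (32.0 to 40.0) of 568, 38.6% in FTOC and 34.3% in ORFTOC. For TRA the shares were 13.1% and 25.2%. The selected-like cluster, which lies between them in development, stood at 12.04% (8.44 to 16.5) of 274 TRB junctions, near the DP-like cells. The longer and shorter junctions thus went with the cell type in both pools.

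Of 13 clusters with at least 40 TRB chains, 4 had Dntt between 7.59 and 13.0 CPM and 9 had it between 106 and 1328 CPM. This division was made after the values were seen, at the gap that is widest on a log scale. In CPM itself the gap between cluster 15 at 106 CPM and the selected-like cluster 9 at 377 CPM was wider. The 4 were the mature SP-like cluster 2, cluster 6 (led by Ly6c2, Cxcr3 and Klrd1), cluster 8 (led by Gzmc, Xcl1 and Gzmb) and the cycling-like cluster 14. Their shares of TRB junctions with no unmatched base were between 27.9% and 39.6%, while those of the 9 others lay between 7.45% and 24.4%. The intervals of the nearest clusters overlapped, cluster 8 at 27.9% (19.5 to 37.5) of 104 chains and cluster 15, led by Pth and Chga, at 24.4% (12.9 to 39.5) of 45. No class stood out for cluster 15, whose best score was -0.36, and a TRB chain was found in 36.6% of its 123 cells. Whether its chains and its Dntt UMIs were the cells' own was not tested. Together the 4 held none unmatched in 35.1% (32.2 to 38.2) of 1016 chains with a mean of 39.8 bases, and the 9 in 10.7% (9.53 to 11.9) of 2807 with a mean of 42.2.

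Within each side of this division the pools were close. The 4 clusters gave 35.9% in FTOC and 34.5% in ORFTOC, and the 9 gave 10.2% and 11.5%. The 4 clusters held 19.5% of the FTOC and 35.7% of the ORFTOC TRB chains. Over the 13 clusters Spearman's rho between Dntt CPM and the share without unmatched bases was -0.76, and between Rag1 CPM and that share -0.64.

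**Figure D5:**
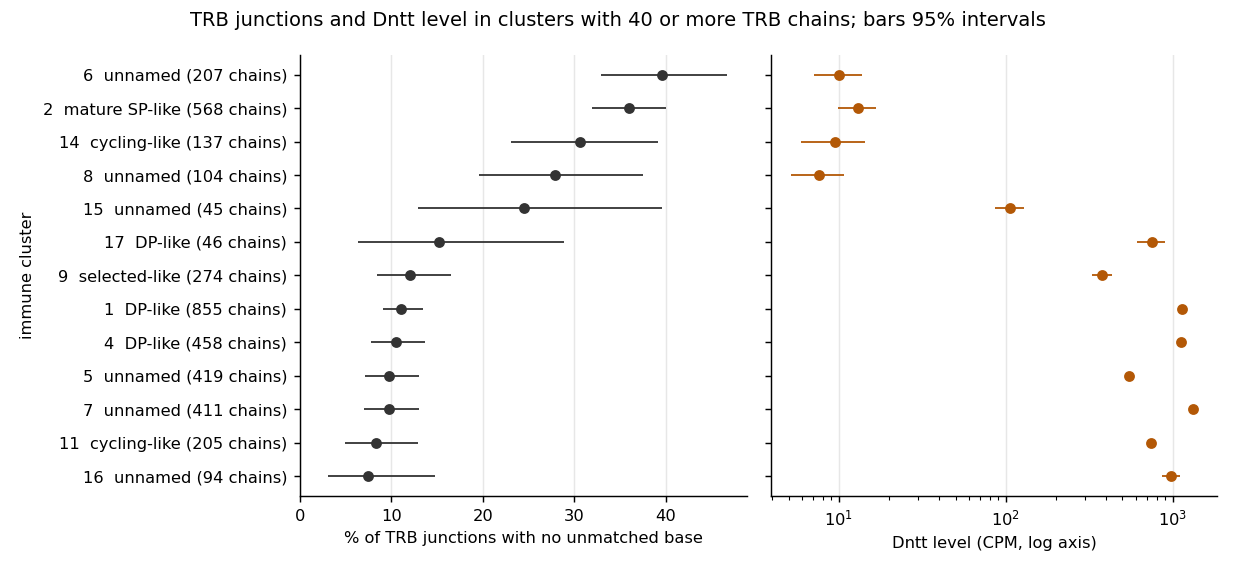
TRB junctions of the 13 immune clusters with at least 40 TRB chains, set against the level of Dntt (CPM, log axis), with 95% intervals on the share of junctions that hold no unmatched base. The 4 clusters with Dntt at 7.59 to 13.0 CPM lie between 27.9% and 39.6%, and the 9 others between 7.45% and 24.4%.

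Junctions shared by the pools were few and poor in unmatched bases. Of the distinct TRB junctions 11 were found in both pools, 36.8 bases long on average with 0.73 unmatched bases and none in 6 of the 11 (54.5%, 23.4 to 83.3). The 3333 found in 1 pool held none in 16.8% (15.5 to 18.1). Of the TRA junctions 9 were found in both pools, 4 of them with no unmatched base (44.4%, 13.7 to 78.8), against 18.05% of 1897 found in 1 pool. TRB junctions repeated in more than 1 cell, 361 in all, were like those found once, 41.9 against 41.5 bases and 16.6% against 17.1% without an unmatched base. The 17 TRA junctions found in more than 1 cell held none in 58.8% (32.9 to 81.6).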

How the data were processed

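Both pools were read from 1 droplet lane. Per the submitters' processing notes the authors used Cell Ranger 6.1.2 (mm10) and Seurat 4.2.0, and deposited raw UMI counts per barcode for genes and hashtags and lists of TCR contigs with their junctions. The deposited counts were loaded in R 4.3.3 with Seurat 5.3.0 and sctransform 0.4.2. Barcodes with at least 600 genes and 0.4 to 10% mitochondrial UMIs were kept and split by hashtag (HTODemux, quantile 0.99), and doublets between pools and likely doublets within pools (by their 50 nearest neighbours) were removed. Clustering used 18 components, at resolution 0.4 for all and 1 for immune cells. UMIs were summed per group and divided by the group's total (CPM), and a count under 3 was set to 3 in ratios. Cells joined the filtered contigs by barcode.

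Unmatched bases came from germline V, D and J segments of GENCODE vM39, matched by name, an alternative chosen after seeing the data; the planned reading used templates made from the junctions. Of the chains, 3921 of 3921 TRB and 1930 of 1932 TRA found their segments. Junctions and levels were computed in Python 3.11.15 with numpy 2.4.6, scipy 1.17.1 and pandas 2.3.3, and drawn with matplotlib 3.10.9. The fold calls, their intervals and the reading of TRB junctions were tested on simulated data, and the other steps were not. The simulated junctions held long D pieces, so short D remnants were not covered. No test between groups was made, as each pool was 1 sample.

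The members, the gene lists and the comparisons were chosen with earlier results of these data known. Named genes were the members, the list of 36 recombination genes and, for each member, the 5 genes closest in log2(CPM + 10) over the immune clusters. Printed junctions were, for each chain, the one in most cells of each pool, the shortest, the longest and up to 3 found in both pools in most cells. The strand, capture and counting of overlapping genes (Rag2 and B230118H07Rik) were left as deposited. UMI counts carry no length correction, and intervals cover counting error only. The values of 1 gene of the recombination list are not reported here.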

Additional observations from a re-analysis of the deposited data

Results flagged for a closer look

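The members were also read in barcodes that no comparison above uses. Among 672 barcodes in which no hashtag was called, with a median of 2394 UMIs, Rag1 stood at 50.5 CPM (43.8 to 58.0), Rag2 at 9.21 CPM (6.48 to 12.7) and Dntt at 46.8 CPM (40.3 to 54.0). All 3 are above the level of epithelial cells, 9.28, 1.24 and 5.38 CPM. The 590 barcodes with both hashtags held 121, 21.1 and 119 CPM.

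The unfiltered contig list held 148 contigs of the TCR delta chain (TRD), none of them productive. Contigs of this kind fell in 118 barcodes of called cells, 103 of them immune cells, 62 of FTOC and 41 of ORFTOC, and all 103 also carried a productive TRB chain. The cells lay mostly in the histone-led cluster 5 (27 cells), the cycling-like cluster 11 (22), the mature SP-like cluster 2 (13) and the Ly6d-led cluster 7 (11), and 2 were in the gamma-delta T-like cluster. Their levels were 277 CPM (240 to 318) for Rag1, 70.3 CPM (52.4 to 92.5) for Rag2 and 527 CPM (475 to 582) for Dntt.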

How the results depend on the processing

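Of 188 values recomputed under other choices, 129 stayed within the spread set for them, 49 moved and 10 changed direction; the cause was not tested. As UMIs per cell, the log2 ratio of resting to cycling became 0.20 for Rag1, -0.71 for Rag2 and -1.55 for Dntt (from 2.12, 1.204 and 0.36), that of ORFTOC to FTOC -0.39, -0.36 and -0.34 (from -0.97, -0.94 and -0.92), and that of both chains to TRB alone -0.65, -0.76 and -0.72 (from -1.26, -1.37 and -1.33), in this order of genes throughout. As the mean of each cell's CPM they became 2.45, 1.503 and 0.68, then -0.42, -0.46 and -0.44, then -0.72, -0.75 and -0.72. Within the DP-like clusters they became 1.27, 0.72 (-0.17 to 1.79) and 0.14 (-0.22 to 0.52), with 9 and 6 cycling cells with TRB alone and with both chains, then -0.10, 0.088 and -0.051, then 0.035, -0.18 and -0.089. With at least 1000 genes per cell, resting to cycling was 1.74, 0.86 and 0.11, ORFTOC to FTOC -1.07 for Rag1, and both chains to TRB alone -1.44 for Dntt. With 1 cell per TRB chain, ORFTOC to FTOC was -1.29, -1.28 and -1.23. With contigs of 3 UMIs or more, both chains to TRB alone was -1.66, -1.82 and -1.58. Calling cells cycling from 1 UMI gave 1.99 for Rag1.

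In clusters built with all variable genes the DP-like level was 1558 CPM for Rag1 and 236 CPM for Rag2 (from 1778 and 256), and at resolution 0.6 it was 1723 CPM for Rag1. Within the DP-like clusters the TRB length difference by Dntt fell to 0.39 bases and the TRA one to -0.0088 (from 1.72 and 1.12), the TRB length difference between chain states was 0.21 (from -0.82), and ORFTOC minus FTOC was 0.21 for TRA length, 0.24 for TRA and 0.028 for TRB template-unmatched bases (from -0.10, -0.14 and -0.67). As medians, the TRB length differed by 0 between pools and chain states. With at least 1000 genes per cell, resting minus cycling TRB length was -0.14 (from 0.13). With a D match of 5 bases the share without an unmatched base was 11.9% in FTOC and 16.1% in ORFTOC. Without thinning, the shares of cells with Rag1, Rag2 and Dntt were 62.8%, 24.95% and 56.7% in resting and 51.4%, 31.5% and 66.4% in cycling cells. No paired analysis was possible because each pool was 1 sample. Depth limits Rag2 most, with 0.268 UMIs per immune cell, so a cell without a Rag2 or Dntt UMI is not shown to lack the transcript.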

Other observations

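A whole delta D segment was found inside alpha-chain junctions. The 16 bases of Trdd2, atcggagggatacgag, stood uninterrupted in 2 of 1904 distinct TRA junctions, both of 57 bases, and the longest run of it in the other TRA junctions was 6 bases. In 3344 TRB junctions the longest run was 7 bases, and Trdd1 (9 bases) was whole in none of either chain. The search was made after the longest TRA junction had been seen. The capitals below are the bases matched to neither V nor J, and they hold the delta D segment.
FTOC, TRAV16-TRAJ40: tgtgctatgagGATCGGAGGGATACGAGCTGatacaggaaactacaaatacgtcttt
ORFTOC, TRAV21-DV12-TRAJ6: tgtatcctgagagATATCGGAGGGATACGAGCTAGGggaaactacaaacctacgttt

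The FTOC cell had 8507 UMIs, a TRA chain of 2 contig UMIs and no TRB chain, lay in cluster 6 and held 0 UMIs of Rag1, Rag2 and Dntt. The ORFTOC cell had 2414 UMIs, both chains and 8 contig UMIs, lay in cluster 7 and held 5 Rag1, 0 Rag2 and 1 Dntt UMIs. Read against V and J alone, these junctions hold 20 and 23 unmatched bases, and the delta D bases are counted among these.

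Resting cells without any productive chain held Rag1 at 184 CPM in FTOC and 47.4 CPM in ORFTOC, Rag2 at 22.6 and 6.08 CPM and Dntt at 109 and 25.2 CPM, and the ORFTOC cells of this kind numbered 1036 against 613. The summed CPM of the epithelial markers in these cells was 423 in FTOC and 116 in ORFTOC. Of the ILC2-like cells 231 of 250 and of the ILC3-like cells 453 of 580 were from ORFTOC. The part of either in these levels was not tested.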
